A study of Mus musculus with 12 samples.

Results

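Apolipoproteins were read on the arrays through 10 genes chosen by name, Apoa1, Apoa2, Apoa4, Apoa5, Apob, Apoc1, Apoc3, Apoe, Apod and Apom, out of 18193 genes with a single symbol per probe set. Their signals came from 17 of 45037 probe sets, and 5 of the 10 genes had several. Of the 10, 8 are taken here as liver-made (all but Apoe and Apod), and Apoe and Apod as genes that many tissues transcribe. The arrays, 12 in number, covered liver, lung, heart and thymus of Sv/129 mice aged 2 months. In each tissue, 1 array held wild type (WT) RNA, 1 held RNA of mice without p66Shc (p66KO, the stress-related isoform encoded by Shc1) and 1 held RNA of mice without the tumour suppressor p53 (p53KO). Every array carried RNA pooled from 4 mice. The study asked which genes in these tissues depend on p66Shc or on p53. With 1 array per tissue and genotype, a knock-out minus WT difference has no replicate error and no test, and the 2 knock-outs of a tissue share the same WT array.

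Apolipoproteins are the protein part of the particles that carry fat and cholesterol in blood. The hepatocyte secretes most of them, Apob as the scaffold of very low density lipoprotein and Apoa1 as the scaffold of high density lipoprotein, while smaller exchangeable proteins move between particles and control lipases and receptors. Apoe is the ligand by which remnants are taken up and is also a major product of macrophages, and Apod is a lipocalin known from fibroblasts and the sheath cells of nerves.

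The defining marker of each tissue had its highest signals there, Alb in liver (14.71 to 14.79), Sftpc in lung (14.63 to 14.91), Myh6 in heart (14.46 to 14.57) and Rag1 in thymus (11.31 to 13.13, lowest in WT). In lung, heart and thymus 1 array stood apart from the other 2. The p53KO lung array correlated over all probe sets at 0.964 with WT and 0.975 with p66KO, which correlated at 0.989 with each other. The WT heart array correlated at 0.977 and 0.976 with p66KO and p53KO (0.986 between them), and the WT thymus array at 0.924 and 0.928 (0.982 between them). On the WT thymus array all 12 salivary gland markers were 2-fold or more above both knock-outs, with median differences of -8.99 (p66KO) and -8.88 (p53KO) on the log2 scale. On the WT heart array Mucl2, one of these markers, read 11.38 against 4.00 and 4.10. Heart and lung markers were also present in thymus, Myh6 reading 9.43, 9.21 and 5.76 there (WT, p66KO, p53KO), and Sftpc 6.34, 9.36 and 6.08. The gene targeted in p66KO, Shc1, was not lower there. Its 2 probe sets read 8.08 and 9.83 in p66KO lung against 5.74 and 8.57 in WT lung, both over 2-fold higher, and neither was 2-fold lower in p66KO in any tissue. Whether they lie in the deleted part is not given in the sources used here, so they do not check the p66KO labels, and groups are named by those labels. The p53 transcript was not analysed here.

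All 9 genes other than Apod had their highest signal in liver, and for each of them the lowest liver array lay above the highest of the other 9 arrays. The gap between those arrays was smallest for Apoe, at 2.72 on the log2 scale, and largest for Apoa4, at 5.29. Signals below are log2 values per probe set, so that a difference of 1 is 2-fold, and each is given in the order WT, p66KO, p53KO. In limma, fitted to all genes with tissue and genotype terms, 9 of the 10 genes were higher in liver than in lung, than in heart and than in thymus at a Benjamini-Hochberg adjusted p under 0.05. Of all genes, 13.0%, 15.4% and 14.7% were higher in liver in these comparisons. The 9 calls in each comparison held in the fits without the WT, the p66KO or the p53KO arrays.

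**Figure D1:**
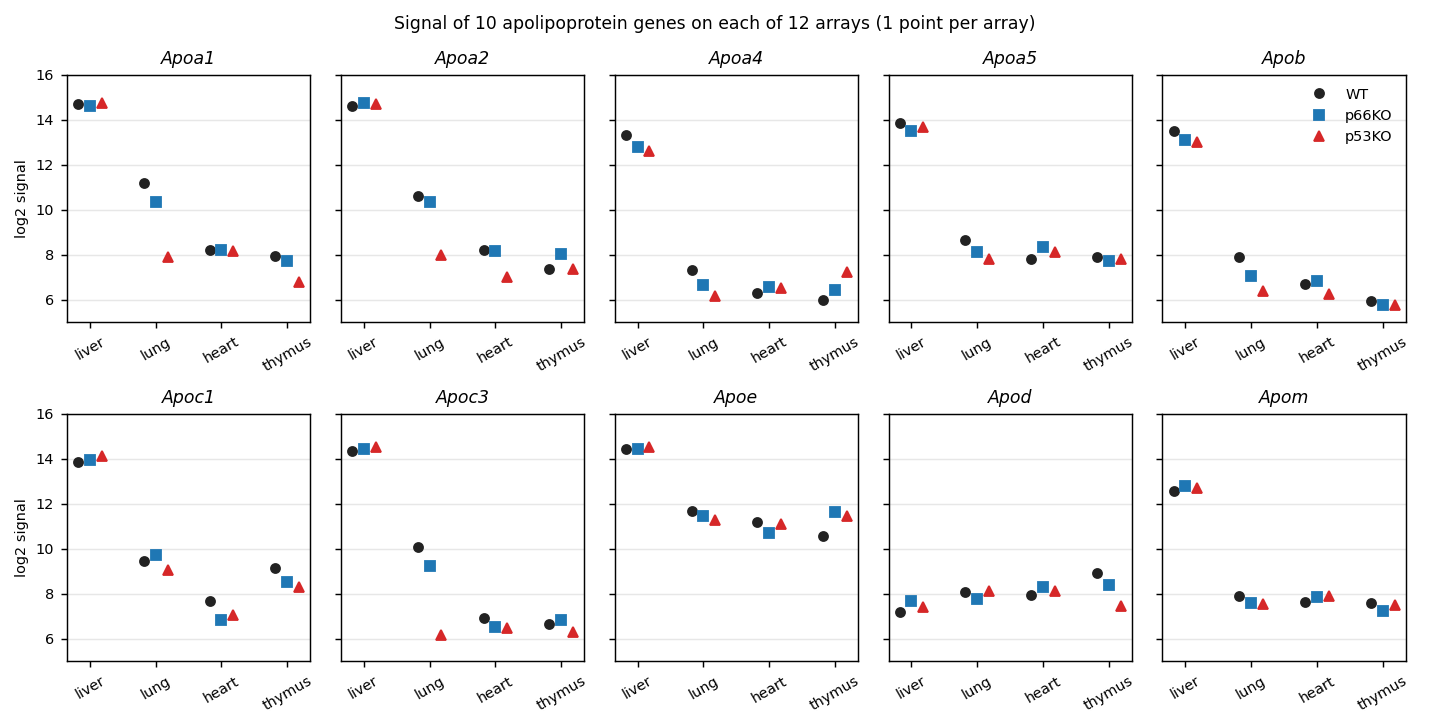
Log2 signal (y axis, arbitrary units) of the 10 apolipoprotein genes in liver, lung, heart and thymus (x axis), 1 point per array, with WT as circles, p66KO as squares and p53KO as triangles. In 9 panels the liver points sit above all others, in the Apod panel they do not, and in lung the p53KO triangle of Apoc3 sits at 6.17 against 10.07 for WT.

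Among the structural proteins, Apoa1 read 14.68, 14.60 and 14.73 in liver. In lung it read 11.18, 10.32 and 7.91, in heart 8.22, 8.20 and 8.14, and in thymus 7.93, 7.73 and 6.77. Its liver values lay within a range of 0.14, while its lung values spanned over 3 log2 units, and the lowest liver value lay above the highest lung value. The limma estimates of liver minus lung and liver minus thymus were 4.87 (SE 0.52, adjusted p = 3.18e-05) and 7.19 (SE 0.52, adjusted p = 1.92e-06). Apob, the protein that stays with its particle from assembly to clearance, read 13.49, 13.09 and 12.98 in liver and 5.96, 5.76 and 5.77 in thymus. Its liver minus thymus estimate in limma was 7.36 (SE 0.24, adjusted p = 9.87e-09).

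The exchangeable proteins had the same liver peak. Apoa2, the second protein of high density lipoprotein, read 14.61, 14.72 and 14.70 in liver, Apoc1 read 13.84, 13.96 and 14.13, and Apoc3, an inhibitor of lipoprotein lipase, read 14.37, 14.45 and 14.52. Apoa5, an activator of lipoprotein lipase, read 13.85, 13.50 and 13.65, and Apom, a lipocalin that carries sphingosine phosphate on high density lipoprotein, read 12.59, 12.77 and 12.68. Apoa4, a protein of chylomicrons that the mouse liver also makes, read 13.33, 12.79 and 12.60. The largest of the 30 tissue estimates against liver was that of Apoc3 over thymus, at 7.84 (SE 0.63, adjusted p = 4.66e-06 in limma).

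The bases before the start sites of Apoa4, Apob and Apod are printed as examples, and they do not set the liver-made genes apart from Apod. Promoter windows of 250 bases upstream of RefSeq starts (GRCm38.p6) were at hand for 8 of the 10 genes, 12 windows in all, and none for Apoc1 and Apoc3. Apoa4 (chr9:46240594-46240843, plus strand) and Apob (chr12:7977427-7977676, plus strand) were the 2 genes with a match to CAAAGNNCA, a short form of the site of the hepatocyte factor HNF4, searched on both strands. Capitals mark that match and TATAAA, and a match describes letters alone. Apod (chr16:31314809-31315058, minus strand) has no capitals because its window held neither. The windows of Apoa1 and Apom, taken as liver-made, also held neither.
Apoa4: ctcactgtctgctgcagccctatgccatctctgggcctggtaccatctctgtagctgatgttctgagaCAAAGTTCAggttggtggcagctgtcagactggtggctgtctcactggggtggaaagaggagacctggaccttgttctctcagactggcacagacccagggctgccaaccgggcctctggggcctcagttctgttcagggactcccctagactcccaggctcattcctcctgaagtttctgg
Apob: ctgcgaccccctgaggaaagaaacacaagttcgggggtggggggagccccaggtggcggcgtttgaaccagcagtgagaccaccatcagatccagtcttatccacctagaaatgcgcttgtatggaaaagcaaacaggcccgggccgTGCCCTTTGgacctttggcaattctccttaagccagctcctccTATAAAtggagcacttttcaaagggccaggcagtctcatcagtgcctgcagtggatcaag
Apod: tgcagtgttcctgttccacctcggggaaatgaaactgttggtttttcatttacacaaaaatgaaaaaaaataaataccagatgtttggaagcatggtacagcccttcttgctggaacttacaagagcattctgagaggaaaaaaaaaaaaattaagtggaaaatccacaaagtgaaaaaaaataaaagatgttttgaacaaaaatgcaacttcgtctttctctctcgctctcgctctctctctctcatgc
In Apoa4 the match CAAAGTTCA starts at position -182, counted from the start site, and in Apob the match starts at -103 and reads on the opposite strand. Of 32851 promoter windows of the same length, 5.49% held CAAAGNNCA. TATAAA was found in windows of 4 of the 8 genes (Apoa2, Apoa5, Apob and Apoe) and in 12.4% of all windows. TTGCNNAA, a form of the C/EBP site, was in Apoa2 and Apob and in 9.56% of all windows, and its Apob match, at -90, does not overlap the HNF4 match. The full HNF1 motif and GGGCGG, the GC box, were in none of the 12 windows (0.0609% and 32.7% of all windows), and the shorter HNF1 motif GTTAAT was in 1 Apoe window (6.43% of all windows).

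Apoe was higher in liver too, but with the smallest differences of the 9 genes. It read 14.44, 14.42 and 14.52 in liver, 11.70, 11.45 and 11.27 in lung, 11.20, 10.71 and 11.11 in heart, and 10.57, 11.63 and 11.44 in thymus. The limma estimates of liver minus lung, heart and thymus were 2.98, 3.45 and 3.25 (SE 0.27 for each, highest adjusted p = 8.27e-06). On the linear scale the WT lung array held 15.1% of the WT liver signal of Apoe, and the WT heart and thymus arrays held 10.6% and 6.85%. Among lung, heart and thymus, Apoe did not differ past the threshold, with estimates of 0.47 for lung minus heart (adjusted p = 0.178 in limma), 0.27 for lung minus thymus (adjusted p = 0.526) and -0.20 for heart minus thymus (adjusted p = 0.578). Without the WT arrays the last became -0.62 (adjusted p = 0.0178 in limma).

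Apod was the one gene of the 10 with its lowest mean in liver. It read 7.18, 7.68 and 7.40 in liver, 8.07, 7.76 and 8.15 in lung, 7.96, 8.29 and 8.14 in heart, and 8.95, 8.41 and 7.46 in thymus. The liver and thymus ranges overlapped, through the p53KO thymus array. In limma the estimate of liver minus thymus was -0.85 (SE 0.31, adjusted p = 0.0602), that of liver minus heart -0.71 (adjusted p = 0.116) and that of liver minus lung -0.57 (adjusted p = 0.211). Without the p53KO arrays liver minus thymus was -1.25 (adjusted p = 0.0327 in limma). The second Apod probe set stayed between 4.92 and 5.71 on the 12 arrays.

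Outside liver the liver-made genes were not evenly low. Lung exceeded heart for Apoa1, Apoa2, Apoc1 and Apoc3, 4 of the 10 genes against 20.4% of all genes in limma (0 of the 10 were lower, 15.9% of all genes), and exceeded thymus for Apoa1, Apoa2, Apob and Apoc1, against 15.3% of all genes (0 of the 10 were lower, 10.5% of all genes). The first count was 2 without the WT arrays and 1 without the p66KO arrays, and the second was 0 without the p66KO arrays. The Apoc1 call over thymus (adjusted p = 0.0493) was also lost without the p53KO arrays (0.196), with repeated quantile normalization (0.176), median centring (0.0696), cyclic loess (0.0896), no genotype term (0.0581) and an intensity trend (0.0556), and the Apob call with the mean of probe sets (0.0832), all in limma. Apoc1, a small protein that slows remnant uptake, had the largest lung minus heart estimate, 2.22 (SE 0.25, adjusted p = 7.39e-05). In thymus Apoc1 read 9.15, 8.54 and 8.32 and in heart 7.68, 6.84 and 7.05, a heart minus thymus estimate of -1.48 (adjusted p = 0.00115 in limma), the 1 gene of the 10 lower in heart than in thymus (18.8% of all genes). Apob was the 1 gene higher in heart than in thymus (15.5% of all genes), at 0.75 (adjusted p = 0.032 in limma), a call lost without the p66KO or the p53KO arrays (adjusted p = 0.323 and 0.0825). Without the WT arrays, Apoa5 and Apom were also higher in heart than in thymus. In limma with all arrays, 17 of 32 hepatocyte markers were also higher in lung than in heart (20.4% of all genes). Higher in lung than in thymus were 23 of the 32 (15.3%), and 0 were lower in either comparison. The arrays carry no detection calls here, so a low signal was not read as absence of transcript.

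The knock-out that stood out was p53KO in lung. All 8 liver-made apolipoproteins read lower there than in WT lung, with a median difference of -1.33 against 0.07 over all genes. A difference of 2-fold or more in that direction was seen for 5 of the 10 genes and for 4.14% of all genes, and 0 of the 10 were 2-fold higher (0.616% of all genes). Apoc3 read 10.07, 9.22 and 6.17 in lung, a p53KO minus WT difference of -3.91. Apoa1 differed by -3.27 and Apoa2, at 10.60, 10.35 and 7.96, by -2.64. In these 3 genes the p53KO lung array lay near the heart and thymus arrays, whereas the WT and p66KO lung arrays lay above all of those.

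The other liver-made genes differed less in the same lung comparison. Apob read 7.88, 7.07 and 6.37 (p53KO minus WT -1.51) and Apoa4 read 7.31, 6.64 and 6.16 (-1.15). Apoa5 read 8.63, 8.10 and 7.80 (-0.83), Apoc1 9.47, 9.72 and 9.04 (-0.43) and Apom 7.91, 7.60 and 7.55 (-0.36). In the 2 genes taken as broadly made the difference was -0.43 for Apoe and 0.08 for Apod. Whether the liver-made and the broadly made genes differ in this comparison was not tested.

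The p66KO lung array lay between the other 2 arrays for most liver-made genes. No gene of the 10 was 2-fold or more lower in p66KO lung (0.313% of all genes) or higher (0.341%), and the median of the liver-made genes was -0.60 against 0.01 over all genes. The order WT above p66KO above p53KO was seen in 7 of the 8 liver-made genes in lung, Apoc1 being the exception, and in 19.7% of all genes. In liver the same order was seen in 2 of the 8 (21.1% of all genes). Against the p66KO lung array in place of WT, Apoc3, Apoa1 and Apoa2 were 2-fold or more lower in p53KO lung, at -3.06, -2.41 and -2.39, 3 of the 10 genes against 3.14% of all genes.

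Markers of hepatocytes moved alongside in lung. Of 32 measured hepatocyte markers, 24 were 2-fold or more lower in p53KO lung (4.14% of all genes) and 9 in p66KO lung (0.313%). Their medians were -1.94 and -0.77, and none was above WT in either. Their summed log2 signal in lung was 15.49 in WT, 14.66 in p66KO and 12.52 in p53KO. Alb, the albumin gene, read 13.13, 12.30 and 8.79 in lung, and its WT lung signal was 31.6% of its WT liver signal on the linear scale. The matching share was 8.80% for Apoa1, 6.19% for Apoa2, 5.09% for Apoc3 and 1.54% for Apoa4, and in p53KO lung it was 0.914%, 0.996%, 0.339% and 0.695%. The difference between the 3′ and 5′ Gapdh control probe sets, a measure of RNA integrity, was 2.29, 1.32 and 0.66 on the WT, p66KO and p53KO lung arrays. Thymocyte markers were higher in lung in both knock-outs. By 2-fold or more, 5 of 10 were higher in p66KO (median 1.25, 0.341% of all genes) and 1 of 10 in p53KO (median 0.60, 0.616%). Of these, Cd3g, Rag1 and Cd8b1 in p66KO and Cd3g in p53KO were below the median gene of both arrays compared. Summed log2 signals in lung were 13.54, 14.35 and 14.01 for adipocyte markers and 13.44, 12.83 and 12.55 for heart markers. For macrophage markers they were 14.85, 14.89 and 14.88, but a sum follows the brightest genes. C1qb and Marco of this list, named for the size of their differences, were at -1.75 and -1.71 in p53KO lung. The other macrophage markers are not given singly in lung. The part of these markers and of RNA integrity in the apolipoprotein differences was not tested. In bulk tissue, fewer cells of a type and less RNA per cell cannot be told apart.

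**Figure D2:**
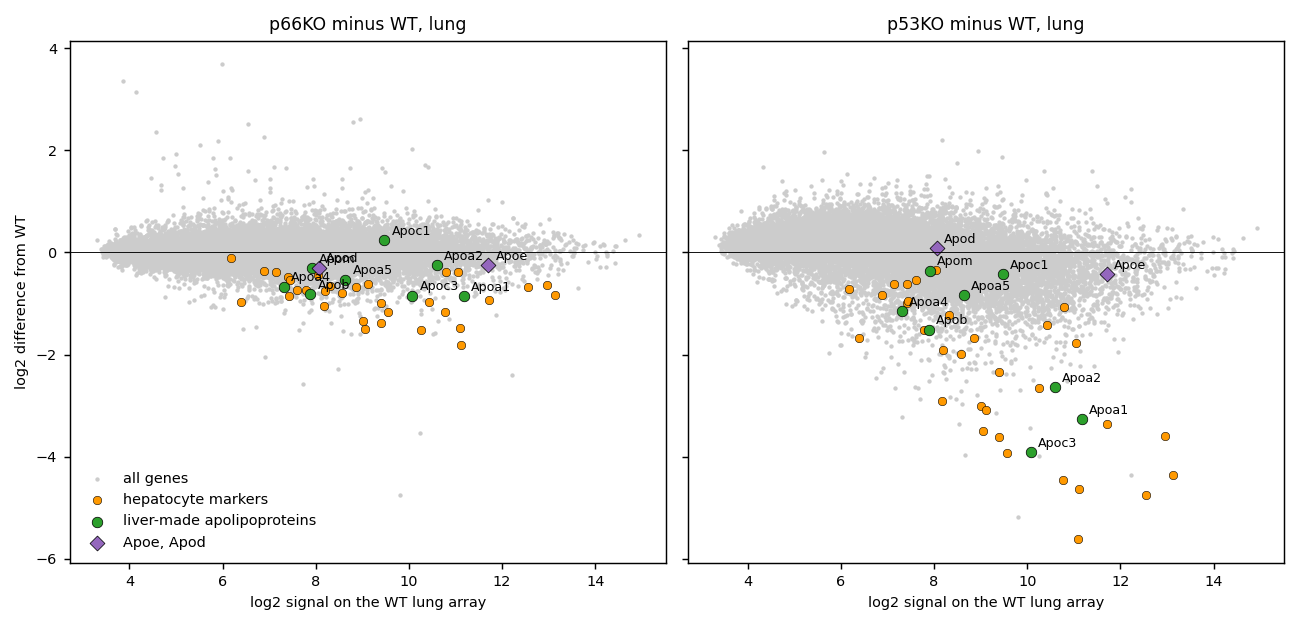
Knock-out minus WT log2 difference in lung (y axis) against log2 signal on the WT lung array (x axis), for p66KO at left and p53KO at right. Grey points are all 18193 genes, orange points 32 hepatocyte markers, green points the 8 liver-made apolipoproteins and purple diamonds Apoe and Apod. In the p53KO panel Apoc3 (-3.91), Apoa1 (-3.27) and Apoa2 (-2.64) lie among the hepatocyte markers, while Apoe lies at -0.43 and Apod at 0.08.

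In the 5 genes with several probe sets, those of a gene gave the same direction in p53KO lung, but not the same size. Apoa1 had 4 probe sets, which differed by -3.27, -4.16, -4.38 and -4.93, and the smallest of these belongs to the brightest probe set, which stands for the gene. Of the 17 probe sets of the 10 genes, 9 were 2-fold or more lower in p53KO lung and 2 in p66KO lung, against 4.49% and 0.393% of all probe sets. The second Apom probe set differed by -1.09 in p53KO lung, where the first differed by -0.36. The second Apob probe set differed by -0.30 where the first differed by -1.51, and the second Apoa4 probe set by -0.54 where the first differed by -1.15. For Apod the second differed by 0.73, at 4.92 in WT and 5.65 in p53KO, where the first differed by 0.08. With the mean of all probe sets per gene, 3 of the 10 genes were 2-fold or more lower in p53KO lung. The share of all genes was not computed for that setting.

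**Figure D3:**
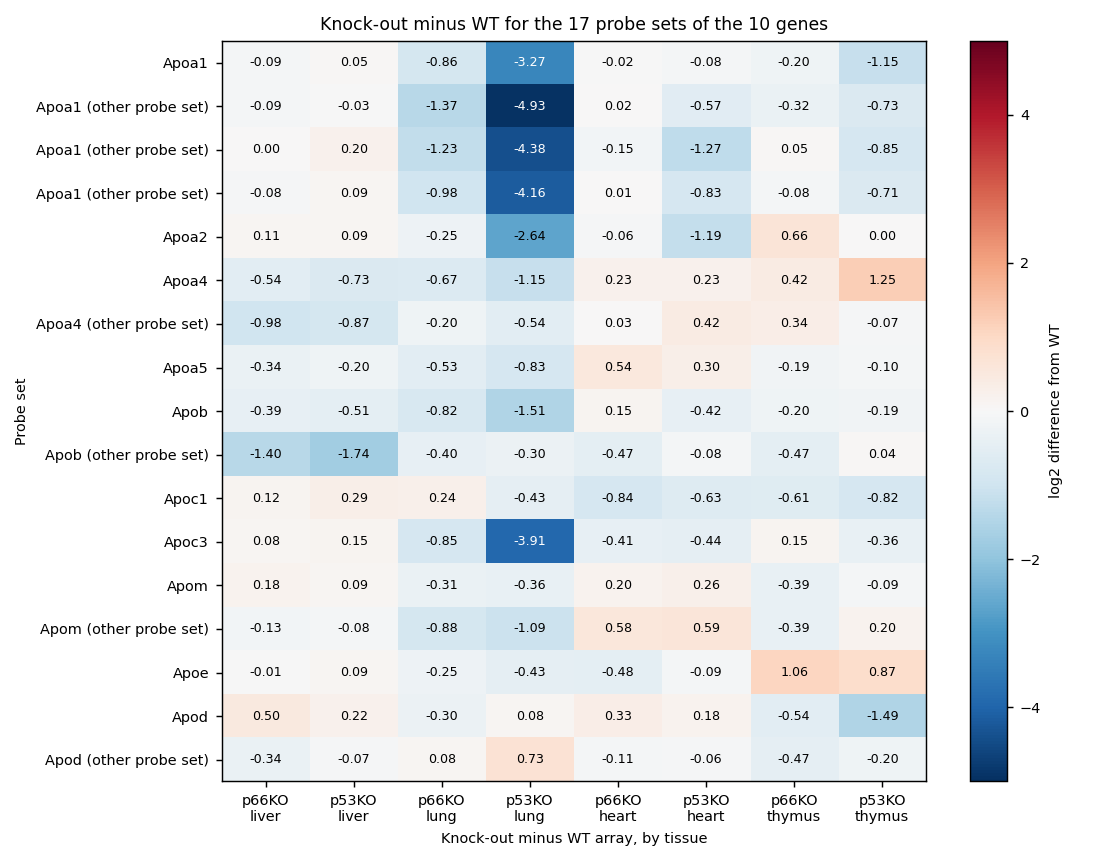
Knock-out minus WT log2 differences of the 17 probe sets (rows) in 8 comparisons (columns, 2 knock-outs in 4 tissues), with blue for lower and red for higher than WT and the value printed in each cell. The 4 Apoa1 probe sets are between -4.93 and -3.27 in p53KO lung, and the second Apob probe set is the lowest cell of both liver columns.

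In liver, where all but Apod had their highest signal, no gene of the 10 was 2-fold lower or higher in p66KO or in p53KO. Of all genes, 0.302% were lower and 0.0824% higher in p66KO, and 0.418% and 0.0934% in p53KO. The differences of Apoa4 were -0.54 in p66KO and -0.73 in p53KO, those of Apob -0.39 and -0.51, and those of Apod 0.50 and 0.22. The second probe set of Apoa4 gave -0.98 and -0.87. The second probe set of Apob gave -1.40 and -1.74, from 9.88, 8.49 and 8.15, so it passed 2-fold in both knock-outs (0.451% and 0.582% of all probe sets were lower) while the brighter one did not. With the mean of its probe sets, Apob differed by -1.12 in p53KO liver. The other 6 liver-made genes lay between -0.34 and 0.29 in both knock-outs, and Apoe lay within 0.09 of WT.

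In heart, Apoa2 was the 1 gene 2-fold or more lower, in p53KO, where 2.08% of all genes were lower and 0.115% higher. It read 8.21, 8.15 and 7.02, so that WT and p66KO were close and p53KO lay below both. In the same heart array 10 of 32 hepatocyte markers were 2-fold or more lower, with a median of -0.25, and their summed log2 signals in heart were 12.77, 12.46 and 11.95. Of 12 salivary gland markers 10 were 2-fold or more lower in p53KO heart (median -2.49) and 6 in p66KO heart (median -2.23), and of 12 adipocyte markers 4 and 5 (medians -0.25 and -0.78). The part of these markers in the Apoa2 difference was not tested. Without the WT array, as p53KO minus p66KO, Apoa2 differed by -1.13. One of the 4 Apoa1 probe sets differed by -1.27 in p53KO heart, while the brightest differed by -0.08. In p66KO heart no gene of the 10 passed 2-fold (1.67% of all genes lower, 0.181% higher), Apoc1 being the widest at -0.84. Apoa4, Apoa5, Apob, Apoc3 and Apom lay between -0.44 and 0.54 of WT on both knock-out heart arrays, and Apod lay 0.33 and 0.18 above WT. Apoe differed by -0.48 in p66KO and -0.09 in p53KO heart, and by -0.05 in p66KO after repeated quantile normalization.

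In thymus the broadly made pair differed from WT in opposite directions. Apoe read 10.57, 11.63 and 11.44, so both knock-out arrays lay above WT, by 1.06 in p66KO and 0.87 in p53KO. The first of these was the 1 gene of the 10 past 2-fold higher in p66KO thymus, where 12.7% of all genes were higher, and 0 of the 10 were 2-fold lower there (4.78% of all genes). It was no longer past 2-fold after repeated quantile normalization (0.47, with 0.44 in p53KO) or cyclic loess among the thymus arrays (0.20, with 0.15 in p53KO). Apod read 8.95, 8.41 and 7.46, a difference of -0.54 in p66KO and -1.49 in p53KO. In p53KO thymus Apod and Apoa1 (-1.15) were 2-fold or more lower, against 4.81% of all genes. The other 3 Apoa1 probe sets differed by -0.71, -0.73 and -0.85 there, and with the mean of probe sets neither gene passed 2-fold (Apod -0.85). After repeated quantile normalization Apod differed by -0.96 in p66KO thymus and -1.74 in p53KO thymus.

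The thymus differences from WT all use the same WT thymus array, which stood apart from both knock-outs. Between the p53KO and p66KO thymus arrays no gene of the 10 passed 2-fold (0.616% of all genes higher in p53KO, 1.18% lower). In that comparison Apoe differed by -0.19, Apod by -0.96 and Apoa1 by -0.96. Apoa1 differed by -0.20 between p66KO and WT, so the array that lay apart for Apoa1 was p53KO. The marker counts that follow are against WT thymus, where 12.7% of all genes passed 2-fold upward and 4.78% downward in p66KO. In p53KO thymus these shares were 8.89% and 4.81%. Of 20 macrophage markers in thymus, p66KO had 5 at least 2-fold above WT and 1 below, with a median of 0.39, and p53KO had 0 above and 4 below, with a median of 0.03. Their summed log2 signals were 13.4, 14.0 and 13.6. Ctss, a macrophage protease of this list, read 10.08, 11.52 and 10.98. Cd14, of the same list, went the other way in p66KO thymus, at 7.26 against 9.01 in WT (-1.75). Of 18 fibroblast and nerve sheath markers, 2 were 2-fold or more lower in p66KO thymus and 7 in p53KO thymus, where 1 was higher, with medians of -0.33 and -0.83 and summed log2 signals of 13.7, 13.5 and 12.9. Col3a1, a fibrillar collagen, differed by -1.84 in p53KO thymus. Of 32 hepatocyte markers, 8 were 2-fold or more lower in p53KO thymus, with a median of -0.67. Of 10 thymocyte markers, 7 were 2-fold or more higher in p66KO thymus and 8 in p53KO thymus, with medians of 1.45 and 1.55. Of 10 heart markers, 7 were 2-fold or more lower in p53KO thymus (median -2.99), and in p66KO thymus 2 were higher and 2 lower. Of 9 lung markers, 3 were 2-fold or more lower in p53KO thymus, and in p66KO thymus 3 were higher and 2 lower. Summed log2 signals in thymus were 17.9, 8.86 and 8.77 for salivary gland markers and 14.4, 14.6 and 13.8 for adipocyte markers. The part of these markers in the Apoe, Apod and Apoa1 differences was not tested.

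**Figure D4:**
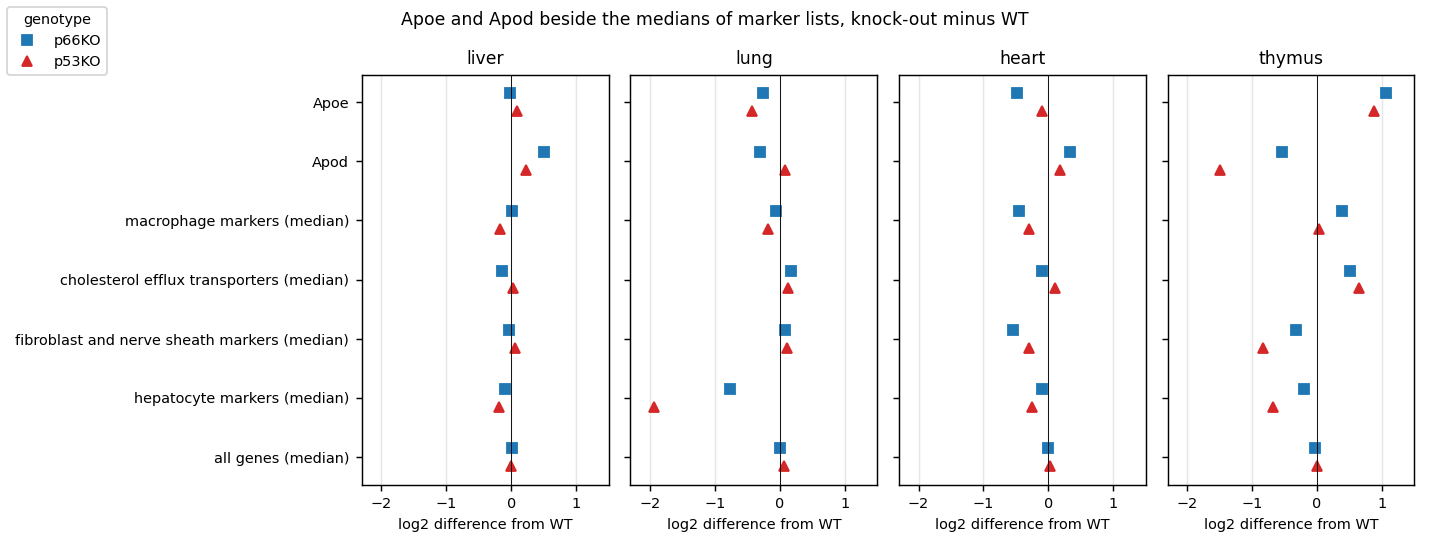
Knock-out minus WT log2 differences (x axis) of Apoe and Apod beside the medians of 4 gene lists and of all genes (rows), in 4 tissues, with p66KO as squares and p53KO as triangles. In thymus both Apoe points lie above 0.8 and the p53KO Apod point lies at -1.49, and in lung the hepatocyte medians lie at -0.77 and -1.94.

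Apoa4 in thymus was at odds with its second probe set. Its brighter probe set read 5.98, 6.40 and 7.22, a p53KO minus WT difference of 1.25 and the 1 gene of the 10 past 2-fold higher there (8.89% of all genes). The second probe set read 6.52, 6.86 and 6.45, a difference of -0.07. Apoc1 differed by -0.61 in p66KO thymus and -0.82 in p53KO thymus, and by -1.08 and -1.16 after repeated quantile normalization, which took it past 2-fold. Apoa2 lay 0.66 above WT in p66KO thymus, while its p53KO and WT arrays both read 7.34. Apoa5, Apob, Apoc3 and Apom lay between -0.39 and 0.15 of WT in both knock-out thymus arrays.

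Across the 4 tissues, limma with tissue as a fixed block gave no gene of the 10 past an adjusted p of 0.05, in p53KO minus WT or in p66KO minus WT. Of all genes, 0.0055% were lower and 0.0% higher in p53KO, and 0.0% in either direction in p66KO. At an unadjusted p under 0.05 the p53KO fit had 3 of the 10 genes, Apob at -0.66 (SE 0.20, adjusted p = 0.355), Apoa1 at -1.11 (SE 0.45, adjusted p = 0.437) and Apoa2 at -0.93 (SE 0.39, adjusted p = 0.446). The p66KO fit had 0 of the 10. Over all genes the unadjusted counts were 1873 and 717. For Apoa1 the estimate averages a lung difference of -3.27 with differences of 0.05 in liver, -0.08 in heart and -1.15 in thymus.

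Other apolipoproteins and proteins of the pathway were read from lists chosen by function. Of 13 other measured genes named for apolipoproteins, which include the mRNA-editing enzyme Apobec1 and the receptor Apobr, 4 were 2-fold or more lower in p53KO lung (4.14% of all genes), and these were Apof at -2.72, Apoh at -2.70, Apon at -2.06 and Apoc4, the neighbour of Apoc1, at -1.34. Apof and Apon were also 2-fold or more lower in p66KO lung, at -1.55 and -1.38 (0.313% of all genes). Clu, a chaperone of high density lipoprotein that many tissues make, read 12.09, 11.44 and 11.40 in lung. The list had a median of -0.05 in p53KO lung and held 10 of 13 genes higher in liver than in lung in limma (13.0% of all genes).

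Genes that build, remodel or take up the particles were read in lung in the same way. Of 15 genes of lipoprotein assembly and secretion, 12 of plasma remodelling, 15 of receptors and uptake and 8 of cholesterol efflux, 0 were 2-fold different in either lung comparison. The shares of all genes were also small, 4.14% lower and 0.616% higher in p53KO lung, and 0.313% and 0.341% in p66KO lung. Mttp, which loads lipid onto Apob, read 10.04, 9.88 and 10.05 in liver and 6.14, 6.03 and 5.95 in lung, and 12 of the 15 assembly genes were higher in liver than in lung in limma (13.0% of all genes). Hnf4a, the factor named above, read 11.72, 11.35 and 11.40 in liver and 7.87, 7.61 and 7.62 in lung. Of 23 regulators, Foxa2 was the 1 gene 2-fold or more lower in p53KO lung, at -1.05 (4.14% of all genes), and 14 of the 23 were higher in liver than in lung (13.0% of all genes in limma).

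In thymus the efflux list had medians of 0.50 in p66KO and 0.64 in p53KO. Npc2, which moves cholesterol out of lysosomes, read 11.21, 12.41 and 11.98 and was the 1 gene of the 8 past 2-fold, in p66KO (12.7% of all genes were higher). Abca1, which passes cholesterol to Apoa1 and Apoe, read 8.72, 9.65 and 9.33 in thymus. Of the 12 remodelling genes, 4 were 2-fold or more lower in p53KO thymus (4.81% of all genes), with Lpl, the lipase of capillaries, at -1.21 and Pon3, a lactonase carried on high density lipoprotein, at -3.24. Of the 15 assembly genes, P4hb, a subunit of the lipid transfer complex, was the 1 gene past 2-fold in p53KO thymus, at -1.48 (4.81% of all genes were lower). All of these thymus differences are against the same WT array. On it all 12 salivary gland markers were 2-fold or more above both knock-outs.

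Likeness of pattern was measured as the root mean square difference of mean-centred log2 signals over the 12 arrays, which share tissues and pools. The gene nearest to Apoa1 outside the 10 was Apoh, at 0.34, followed by Pzp and Cyp2c29, both at 0.44, against a median of 2.97 over all genes. The gene nearest to Apoe was Pcyt2, at 0.10, with a median of 1.52 over all genes. Apod had Boc, S1pr2 and Cpa3 nearest, at 0.24, 0.24 and 0.25, against a median of 0.59. For Apom these were Slco1a1, Gm20319 and Amdhd1, at 0.14, 0.14 and 0.16, against 2.24. Among the 10 genes the closest pairs were Apoa5 with Apom (0.33) and Apoa1 with Apoa2 (0.43). In the RefSeq gene order Apoa1, Apoc3, Apoa4 and Apoa5 follow one another on chromosome 9, and Apoc1 and Apoe are neighbours on chromosome 7. Along the chromosome 9 cluster the p53KO minus WT lung differences were -3.27, -3.91, -1.15 and -0.83, and for Apoc1 and Apoe they were both -0.43.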

How the data were processed

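RNA of freshly isolated tissue was hybridised to 12 Affymetrix Mouse Genome arrays. The authors deposited 1 log2 signal for each probe set and array, made with RMA in Partek 6.5, per the labels. RMA corrects background, applies quantile normalization and summarises probes, so differences of dim genes are understated. The labels and the study's methods name different labelling kits. Raw intensities were not used here.

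Of 45101 probe sets, 64 controls were left out. Of the others, 34945 had 1 symbol, 932 several and 9160 none in the platform table. Entrez numbers matched 34741 to RefSeq, and 0 symbols differed. The probe set with the highest mean over the 12 arrays stood for a gene.

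Groups came from the sample titles. Knock-out minus WT was subtracted within a tissue. Tissue and genotype were fitted together to all genes with limma 3.58.1 (R 4.3.3), leaving 6 residual degrees of freedom, with Benjamini-Hochberg adjustment, and checked on simulated data. The arrays of a genotype may share mice, and the residual also holds genotype effects that differ between tissues, so p-values measure only this spread. The number of arrays limits the precision. Python 3.11.15 was used for the rest. Named genes were the 10 members, the 3 nearest genes of Apoa1, Apoe, Apod and Apom, and up to 4 genes per list with the largest differences. Foxa2, Clu, Mttp, Hnf4a, Alb, Ctss, Rag1, Apobec1, Apobr and the probe sets singled out were added after their values were seen. The 10 genes and all lists were chosen with earlier results of these data known. Alternatives are given in the closing section.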

Additional observations from a re-analysis of the deposited data

Results flagged for a closer look

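Apoa4 differed from WT in opposite directions in p53KO lung and p53KO thymus, by -1.15 and 1.25 on the log2 scale, each from 1 array per group. The difference between the tissues was not tested. The second Apoa4 probe set gave -0.54 in lung and -0.07 in thymus.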

How the results depend on the processing

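Each comparison within a tissue rests on 1 array per group, and no detection calls were used, so small differences of dim genes are not resolved. No paired analysis was possible because the labels carry no replicate numbers. The genotype fit has tissue as a fixed block, and a random block for tissue also gave 0 of the 10 genes. No result past its threshold changed direction under the alternatives run, which did not read the second Apoa4 probe set on its own. That probe set gave -0.07 in p53KO thymus, where the brighter one gave 1.25. Of the values of single genes, 1122 kept their side of the threshold or moved by less than 1 SD, 23 moved by more, 28 lost and 7 gained a call in the tissue fits.

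Counts of the 10 genes that changed were mainly these. Shares of all genes were not computed at 1.5-fold or 3-fold, or with other normalizations. They were also not computed with the mean of probe sets or without probe sets ending in _x_at or _s_at. Those counts were therefore not set against all genes. At 1.5-fold, 1 was lower in p53KO liver, 6 in p53KO lung, 3 in p53KO thymus, 4 in p66KO lung, 2 in p53KO heart, 1 in p66KO heart and 1 in p66KO thymus, and 2 were higher in each knock-out thymus. At 3-fold, 3 were lower in p53KO lung, and 0 were lower in p53KO heart, 0 lower or higher in p53KO thymus and 0 higher in p66KO thymus. With the mean of probe sets, 1 was lower in p53KO liver, 3 in p53KO lung and 1 in p66KO lung, and 0 were lower or higher in p53KO thymus. Without probe sets ending in _x_at or _s_at, which exchanges the Apoa1 probe set, 1 was lower in p66KO lung and 1 in p53KO thymus. With p66KO as the reference, 3 were lower in p53KO lung and 0 lower or higher in p53KO thymus. Repeated quantile normalization and cyclic loess each gave 1 lower and 0 higher in p66KO thymus. Over the 17 probe sets, an alternative chosen after seeing the data, 1 was lower in each knock-out liver, 2 were lower in p66KO lung and 2 in p53KO thymus, and 1 was higher in each knock-out thymus.

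In the tissue fits, leaving out each genotype in turn gave 0 to 1 genes lower in liver than in thymus, 1 to 4 higher in lung than in heart, 0 to 4 higher in lung than in thymus, 0 to 3 higher and 1 to 2 lower in heart than in thymus. Without a genotype term these were 1 for liver below thymus, 2 for lung over heart and 0 for heart over thymus. Repeated quantile normalization gave 2 for lung over heart and 0 for heart over thymus, cyclic loess gave 2 for lung over heart, and lung over thymus was 3 with quantile normalization, median centring, cyclic loess, the mean of probe sets or no genotype term. The mean of probe sets gave 0 for heart over thymus. Shares of all genes were not computed for these alternative fits. The fits across tissues gave 0 of the 10 genes under all alternatives run, including without thymus and lung together, which was chosen after seeing the data. The causes were not tested unless stated.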
